A study of Mus musculus with 18 samples.

Results

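The genes described here build caveolae, the small flask-shaped pits of the plasma membrane, or encode Popeye domain proteins, which bind cyclic AMP in heart and skeletal muscle membranes. The members were the caveolins Cav1, Cav2 and Cav3, the cavins Cavin1, Cavin2, Cavin3 and Cavin4, and the Popeye genes Popdc2, Popdc3 and Bves. They were chosen by name, with earlier results of these data known, and 10 of 10 were found among the 12911 genes of the summed table. The study sequenced RNA from cardiac tissue of wild-type mice, C57BL/6 by the series title, after 28 days of treatment. The saline group received saline, the AngII group received angiotensin II, a pressor hormone, at 500 ng per kg per min, and the AngII+ETH group received the same infusion with ethoxysanguinarine, a benzophenanthridine alkaloid, at 10 mg per kg per day. Each group held 6 libraries made from rRNA-depleted total RNA, whose replicate numbers below follow the order of the samples and are not from the labels. The labels do not say that the libraries came from separate animals, so every p-value measures only the spread between these libraries.

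Caveolins insert into the inner leaflet of the membrane as a hairpin and form the scaffold of a caveola, and the cavins coat that scaffold from the cytoplasm. Cav1, Cav2, Cavin1, Cavin2 and Cavin3 are expressed in many cell types and are abundant in endothelium and fat, whereas Cav3 and Cavin4 are the muscle forms and lie at the sarcolemma and the transverse tubules of cardiomyocytes. Popeye proteins are transmembrane proteins of striated muscle, of which BVES binds caveolin-3, and mutations of the family are known for disturbed heart rhythm. Below, Cav3, Cavin4, Popdc2, Popdc3 and Bves are called the muscle genes and the other 5 the broadly expressed genes.

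The sequence upstream of the start site was printed for the genes on which the results turn: Cav3, Cavin4 and Popdc2 as muscle genes, and both start sites of Cav1, because its transcripts were counted from both. Each is the 250 bases before a RefSeq start site in GRCm38.p6, 5′ to 3′ on the plus strand, and 7 of the 10 members had an entry. Capitals mark the E-box (CANNTG), the letters bound by basic helix-loop-helix factors, and the M-CAT element (CATTCC), the letters bound by TEAD factors. Both strands were searched. The Cav3 window is chr6:112459255-112459504, that of Cavin4 is chr4:48663264-48663513 and that of Popdc2 is chr16:38361940-38362189. The upstream Cav1 window is chr6:17306085-17306334 and the downstream one is chr6:17307390-17307639.
Cav3: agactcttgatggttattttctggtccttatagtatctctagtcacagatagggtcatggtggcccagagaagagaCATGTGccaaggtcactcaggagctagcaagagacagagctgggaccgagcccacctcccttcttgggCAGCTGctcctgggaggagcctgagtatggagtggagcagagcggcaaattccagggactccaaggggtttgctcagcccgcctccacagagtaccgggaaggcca
Cavin4: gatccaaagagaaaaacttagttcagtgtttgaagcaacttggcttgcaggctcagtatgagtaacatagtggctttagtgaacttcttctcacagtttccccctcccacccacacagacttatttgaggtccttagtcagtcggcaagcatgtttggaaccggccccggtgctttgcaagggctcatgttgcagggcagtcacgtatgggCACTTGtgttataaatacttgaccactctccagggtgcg
Popdc2: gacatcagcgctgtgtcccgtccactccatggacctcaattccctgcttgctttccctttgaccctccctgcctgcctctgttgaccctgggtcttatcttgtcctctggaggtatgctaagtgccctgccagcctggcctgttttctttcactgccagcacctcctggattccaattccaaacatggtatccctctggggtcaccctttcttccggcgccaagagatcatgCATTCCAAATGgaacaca
Cav1 upstream start: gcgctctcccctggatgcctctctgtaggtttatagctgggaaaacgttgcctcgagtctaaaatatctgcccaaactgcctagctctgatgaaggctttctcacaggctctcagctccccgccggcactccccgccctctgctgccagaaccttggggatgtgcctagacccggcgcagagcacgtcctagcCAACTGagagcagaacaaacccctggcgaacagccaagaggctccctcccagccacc
Cav1 downstream start: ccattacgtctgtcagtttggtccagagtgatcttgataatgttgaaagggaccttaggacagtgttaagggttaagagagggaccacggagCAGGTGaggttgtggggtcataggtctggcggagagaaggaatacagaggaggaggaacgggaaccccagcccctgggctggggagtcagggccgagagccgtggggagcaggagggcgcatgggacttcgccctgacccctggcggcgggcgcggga
The Cav3 window holds 2 E-boxes, and the Cavin4 window and each Cav1 window hold 1. In the Popdc2 window an M-CAT element and an E-box overlap by 1 base close to the start. An E-box is in 66.2% and an M-CAT element in 12.6% of all 32851 promoters of the same length, so the match of an E-box is a common one. None of the 5 windows holds a CArG box (in 1.47% of all promoters) or a MEF2 box (in 2.92%), which says only that these letters are not in the windows. These matches are descriptions of sequence and no binding was measured.

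Some libraries stood apart by what tissue they held, and this touches every value below. In 3 libraries (replicate 5 of saline, 3 of AngII, 4 of AngII+ETH) the atrial light chain gene Myl7 had a listed value of 0. Its ventricular counterpart Myl2 was low in replicate 6 of saline, at 3.77 FPKM, and in replicate 5 of AngII, at 3.37 FPKM. The other 13 libraries held both at 10 FPKM or more. Adipoq, a hormone made by fat cells, reached 105 FPKM in replicate 4 of saline and 168 FPKM in replicate 6, with 20.4 FPKM or less elsewhere. FPKM scales the fragments of a transcript by its length and by the size of the library. The step between low values corresponds to 63.9 to 80.6 fragments per FPKM and kilobase, an inferred depth at which the lowest member value, that of Popdc3, rests on about 453 fragments. Because the tissue was measured in bulk, fewer cells of a type and less RNA per cell cannot be told apart.

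By mean level over the 18 libraries, Popdc2 was the most abundant member at 218 FPKM, above Cav1 at 152 FPKM in 16 of 18 libraries. Cav1 stood above Cavin1, at 123 FPKM, in 17 libraries, and Cavin1 above Cavin2, at 48.3 FPKM, in all 18. Cavin2 and Cav3, at 41.9 FPKM, could not be ordered over all libraries, since Cavin2 was higher in 9 of 18. By group their medians were 53.2 against 28.5 FPKM in saline and 48.6 against 48.4 FPKM in AngII. In AngII+ETH they were 41.2 against 48.1 FPKM, so the order differed by group. Cav3 exceeded Cavin4, at 29.9 FPKM, in 18 libraries. Cavin4 and Cavin3, at 26.1 FPKM, were likewise not separated over all libraries, with Cavin4 higher in 10. In saline the median of Cavin4 was the lower, at 16.5 against 23.8 FPKM. It was the higher in AngII, at 36.2 against 19.7 FPKM, and in AngII+ETH, at 35.4 against 27.9 FPKM. Cav2 at 13.5 FPKM, Bves at 10.05 FPKM and Popdc3 at 9.07 FPKM were the lowest, and Cavin3 exceeded Cav2 in every library. Cavin4 varied most, with its highest library 8.82-fold above its lowest, against 2.23-fold for Cavin1, the coat protein that all caveolae need.

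Among the muscle genes, Cav3, the muscle caveolin, had a lowest, median and highest level of 19.7, 28.5 and 43.0 FPKM in saline. The corresponding levels were 35.0, 48.4 and 64.9 FPKM in AngII and 45.4, 48.1 and 50.6 FPKM in AngII+ETH. All 6 AngII+ETH libraries and 5 of 6 AngII libraries lay above every saline library. The means were 29.4 ± 8.42, 48.5 ± 9.68 and 47.8 ± 2.03 FPKM (SD, n = 6 each), and the AngII+ETH libraries were the most alike. The fitted difference on the log2(FPKM + 1) scale was 0.72 (SE 0.158) for AngII against saline and 0.73 (SE 0.158) for AngII+ETH against saline.

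Cavin4, the muscle cavin, which links caveolae to the transverse tubules, stood at 5.16, 16.5 and 36.1 FPKM (lowest, median and highest) in saline. It stood at 22.5, 36.2 and 45.5 FPKM in AngII and at 29.7, 35.4 and 43.1 FPKM in AngII+ETH. The groups overlapped, mainly through saline replicate 5, which had no atrial Myl7 and reached 36.1 FPKM, above 3 of the 6 libraries of each other group. The remaining 5 saline libraries held 22.7 FPKM or less, and the highest of them lay just above the lowest AngII library. The lowest saline values, 5.16 and 7.66 FPKM, were those of replicates 6 and 4, the libraries with high Adipoq. The means were 17.4 ± 11.2 FPKM in saline, 36.5 ± 8.14 FPKM in AngII and 35.7 ± 5.96 FPKM in AngII+ETH (SD, n = 6 each), and the fitted differences from saline were 1.23 (SE 0.323) and 1.22 (SE 0.323).

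Popdc2, the Popeye gene best known from the sinus node and the working heart, stood at 108, 189 and 281 FPKM (lowest, median and highest) in saline. It stood at 197, 239 and 283 FPKM in AngII and at 199, 229 and 254 FPKM in AngII+ETH. These ranges overlapped, and saline was the widest, with an SD of 63.8 FPKM against 28.1 and 21.6 FPKM. Popdc3, a low-abundance family member, stood at 3.55, 7.15 and 8.34 FPKM in saline, at 8.77, 10.6 and 14.8 FPKM in AngII and at 8.71, 9.72 and 11.5 FPKM in AngII+ETH. Every library of the AngII and AngII+ETH groups lay above every saline library, the gap being narrow. Bves, whose protein carries the caveolin-binding stretch, stood at 4.84, 9.31 and 11.7 FPKM in saline, at 9.15, 10.7 and 11.9 FPKM in AngII and at 9.14, 10.6 and 12.8 FPKM in AngII+ETH. Its groups overlapped widely. For AngII against saline the fitted differences were 0.46 (SE 0.183) for Popdc2, 0.74 (SE 0.168) for Popdc3 and 0.34 (SE 0.172) for Bves.

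**Figure D1:**
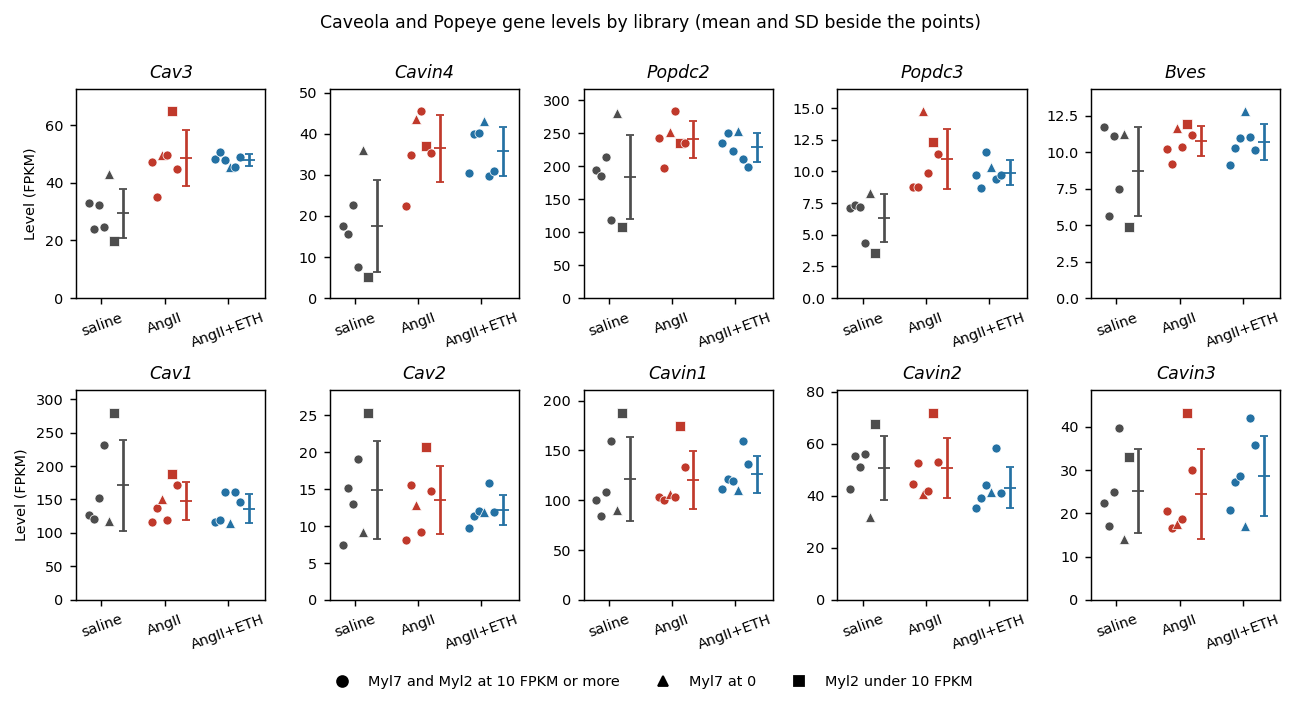
Level of each gene in FPKM (y axis, from 0) for the 18 libraries by group (x axis), with the mean and SD of the 6 libraries beside the points; triangles are libraries with Myl7 at 0 and squares those with Myl2 under 10 FPKM. In the upper row the saline points of Cavin4 run from 5.16 to 36.1 FPKM, and the highest is a triangle; in the lower row the highest Cav1 point is a saline square at 280 FPKM.

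The broadly expressed genes showed no such displacement. Cav1, the scaffold protein of endothelial and fat cell caveolae, stood at 118, 139 and 280 FPKM (lowest, median and highest) in saline, at 117, 144 and 188 FPKM in AngII and at 114, 133 and 161 FPKM in AngII+ETH. The 2 highest saline libraries, at 232 and 280 FPKM, were replicates 4 and 6. Cavin1 stood at 84.1, 104 and 188 FPKM in saline, at 100.4, 105 and 174 FPKM in AngII and at 110.3, 120 and 159 FPKM in AngII+ETH. Its highest values in saline and AngII came from the libraries with little Myl2. The medians of the other 3 were 14.1, 13.8 and 11.9 FPKM for Cav2, the partner of Cav1, in saline, AngII and AngII+ETH. They were 53.2, 48.6 and 41.2 FPKM for Cavin2, which shapes the membrane, and 23.8, 19.7 and 27.9 FPKM for Cavin3, which tethers signalling proteins to the coat. All 3 groups overlapped for each of these 5 genes, and the fitted differences of AngII from saline ran from -0.15 for Cav1 (SE 0.205) to 0.02 for Cavin1 (SE 0.191).

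**Figure D2:**
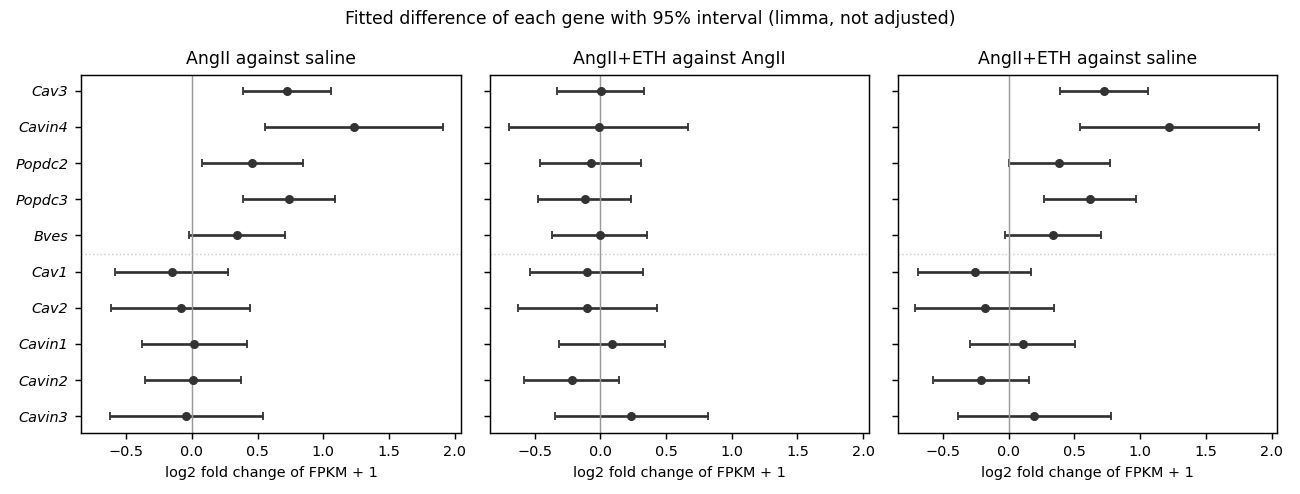
Fitted log2 fold change of FPKM + 1 (x axis) for each gene (y axis) in the 3 comparisons, with bars for the 95% interval of limma's fit, not adjusted for the number of genes. The Cav3, Cavin4, Popdc2 and Popdc3 intervals lie above 0 in both comparisons with saline, and all 10 intervals include 0 for AngII+ETH against AngII.

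The genes were proposed with the differences from saline in view, so both contrasts with saline are given as a description and nothing is read from their counts. With limma and Benjamini-Hochberg adjustment over the 11703 genes tested, 0 of 10 members passed an adjusted p of 0.05 in AngII against saline, where 0.00854% of all genes passed. The count was also 0 in AngII+ETH against saline, where 0.00854% of all genes passed. Without saline replicate 5, the library with no Myl7, 1 member, Cav3, passed in each of these contrasts, at a difference of 0.84 in both. Calls rose over all 11703 genes too, from 1 gene with all libraries. Without that library 8 genes were higher and 3 lower in AngII against saline. In AngII+ETH against saline 4 were higher and 4 lower. At an unadjusted p under 0.05 with all libraries, the count was 4 of 10 members in each contrast, beside 9.06% and 7.51% of all genes. The 4 were Cav3, Cavin4, Popdc2 and Popdc3, all with the saline group lower, as in 3.28% and 3.5% of all genes. The difference was positive for 7 of 10 members in AngII against saline, beside 39.2% of all genes, with a member median of 0.18 beside -0.06 over all genes. It was also positive for 7 of 10 in AngII+ETH against saline, beside 43.7%, with a median of 0.27 beside -0.03. The groups were fully apart, with AngII higher, for Popdc3, beside 0.162% of all genes, and with AngII+ETH higher for Cav3 and Popdc3, beside 0.359%. The contrasts share the saline libraries.

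AngII+ETH against AngII asked whether ethoxysanguinarine altered the levels under the same infusion, and was tested. The muscle genes stood at nearly the same mean in both groups. For Cav3 the difference was 0.00 on the log2(FPKM + 1) scale with a 95% interval of -0.33 to 0.33, and for Popdc2 it was -0.07 with an interval of -0.46 to 0.31. For Cavin4 it was -0.01 with a wider interval of -0.69 to 0.67, which does not reach the 1.23 of AngII against saline over all libraries but covers the 0.49 of the fit with chamber and adipocyte covariates. Popdc3 was at -0.12 (-0.47 to 0.23) and Bves at -0.01 (-0.37 to 0.36). Among the broadly expressed genes the extremes were Cavin2 at -0.22 (-0.58 to 0.15) and Cavin3 at 0.24 (-0.35 to 0.82). By limma, 0 of 10 members passed at the adjusted threshold, where 0% of all genes did, and 0 of 10 had an unadjusted p under 0.05, beside 1.91% of all genes. The difference was positive for 3 of 10 members, beside 56.8% of all genes, with a member median of -0.04 beside 0.02. For every member the ranges of the AngII and AngII+ETH libraries overlapped, whereas 0.0342% of all genes were fully apart and higher with AngII+ETH and 0.0171% lower. The AngII+ETH libraries had been quantified against a different transcript list, 30036 against 30883 transcripts, so list and treatment cannot be told apart. Of the 18 member transcripts 17 were in both lists, which does not set list and treatment apart. The remaining one, Popdc2-203, was in the AngII+ETH list alone and made up 0.27% of Popdc2 there on average.

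The summed level of markers of other cells and of the muscle cell also differed between libraries and groups. The 12 of 12 cardiomyocyte markers held by the files summed to 5394 to 15392 FPKM in saline, 11818 to 15768 FPKM in AngII and 8428 to 15210 FPKM in AngII+ETH, with medians of 9859, 13929 and 13084 FPKM. Mybpc3, a thick filament protein, was listed at 0 in some library of every group. The 7 of 9 adipocyte markers held summed to 11.1 to 1462 FPKM in saline, 7.28 to 28.9 FPKM in AngII and 11.6 to 268 FPKM in AngII+ETH, with Plin1, Cidec, Retn and Pck1 each at 0 in some library of every group and Adipoq and Cfd at 0 in some AngII+ETH library. The 12 of 12 endothelial markers ranged over 382 to 544, 438 to 552 and 354 to 585 FPKM, with none at 0. The 5 of 5 ventricular markers had median sums of 2842 FPKM in saline, 7432 FPKM under AngII and 6904 FPKM under AngII+ETH, over 81.3 to 11224, 89.0 to 11256 and 2170 to 12628 FPKM, with Irx4 at 0 in some library. The 7 of 7 atrial markers had medians of 17548, 13475 and 14125 FPKM in the same order. They ranged over 173 to 23777, 352 to 55359 and 254 to 34564 FPKM. Myl7 was at 0 in some library of every group, and Sln and Bmp10 in some AngII+ETH library. The 1 of 3 brown adipocyte markers held ranged over 11.1 to 598, 4.02 to 20.5 and 9.82 to 22.0 FPKM. For 8 of 8 fibroblast markers the medians were 1183, 878 and 1401 FPKM, and for 5 of 5 mesothelial markers 63.7, 40.2 and 19.4 FPKM. They were 276, 290.1 and 403 FPKM for 9 of 9 smooth muscle and pericyte markers, and 211, 202 and 233 FPKM for 7 of 7 macrophage markers. Their ranges overlapped between groups. The part of these cell types in the differences was not tested.

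The differences under other settings are given as a description, and none of them tests that part. Without the 2 saline libraries over 100 FPKM of Adipoq, an alternative chosen after seeing the data, the difference of AngII from saline was 0.69 for Cavin4, 0.48 for Popdc3 and 0.15 for Popdc2. For Cav3 it was 0.54. With the cardiomyocyte marker level as a covariate, likewise chosen after seeing the data, it was 0.58 for Cavin4, 0.54 for Cav3, 0.59 for Popdc3 and 0.10 for Popdc2. That level includes Mybpc3, listed at 0 in some libraries. It also differed between the groups, with a mean of 7.40 in saline and 7.94 in AngII on the log2(FPKM + 1) scale. The broadly expressed genes had differences of like size in that fit: 0.27 for Cav1, 0.38 for both Cav2 and Cavin1, 0.44 for Cavin2 and 0.54 for Cavin3. With chamber and adipocyte levels as covariates Cavin4 stood at 0.49, Cav3 at 0.34, Popdc3 at 0.40, Popdc2 at 0.04 and Bves at -0.03. Without the 5 libraries low in Myl7 or Myl2, Cavin4 was at 1.13 and Cav3 at 0.62. Cavin4, Cav3 and Popdc3 kept a positive difference under each of these settings, Cavin4 at less than its value over all libraries, whereas Popdc2 and Bves came to near 0 in some. With the cardiomyocyte covariate the muscle genes were no longer set apart from the broadly expressed ones by size. That covariate was not the only setting to raise a broadly expressed gene, since Cav1 reached 0.29 under another alternative.

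**Figure D3:**
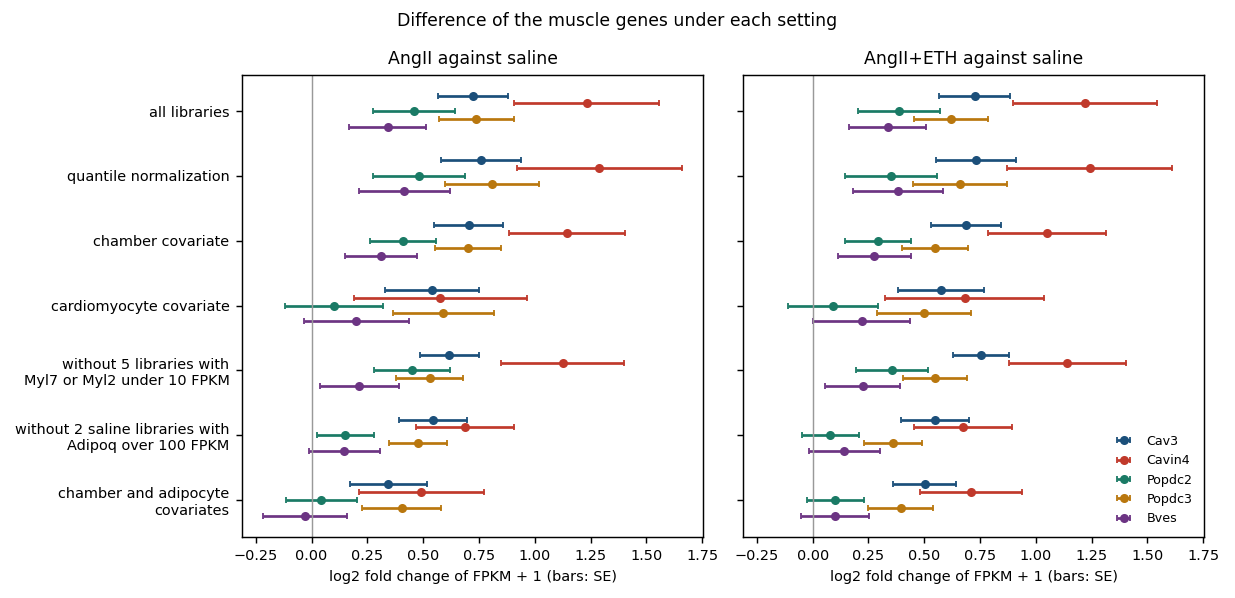
Log2 fold change of FPKM + 1 (x axis, bars SE) of the muscle genes against saline under 7 settings (y axis), for AngII at left and AngII+ETH at right. Cavin4 lies at 1.23 over all libraries and at 0.49 with chamber and adipocyte covariates in the left panel, and Popdc2 moves from 0.46 to 0.04.

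Member levels in the libraries that lacked a chamber marker are given without a test. In the 3 libraries without Myl7, Popdc2 stood at 252 to 281 FPKM, inside the 119 to 283 FPKM of the 13 libraries holding both, and Cavin3 at 14.0 to 17.7 FPKM. In the pair with little Myl2, Cavin3 stood at 33.0 and 43.3 FPKM and Cavin2 at 67.8 and 72.0 FPKM, the highest Cavin2 levels of the series. One of that pair, saline replicate 6, was also the library highest in Adipoq. The 13 libraries holding both chambers' markers covered 16.6 to 42.0 FPKM for Cavin3 and 35.3 to 58.4 FPKM for Cavin2. Cavin4 in the pair with little Myl2 was 5.16 FPKM in saline and 37.0 FPKM in AngII. These libraries, 2 and 3 in number, were of mixed treatment.

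Relations between members inside groups were compared over the 13 libraries with both chamber markers, with each group's mean removed. Pearson's r was positive for 10 of 10 pairs of muscle genes, from 0.29 to 0.77, and for 10 of 10 pairs of broadly expressed genes, from 0.46 to 0.96. It was negative for 21 of 25 pairs across the blocks. Of all pairs of tested genes, 59.5% had a positive r in the same libraries. No pair of muscle genes passed by permutation (0 of 10), the lowest adjusted p being 0.197 by r and 0.127 by rho, both for Cav3 with Popdc2. Popdc2 with Popdc3 had r = 0.67, and 0.10 without saline replicate 4 and AngII replicate 2. The pair Cavin1 and Cavin3, coat subunits that bind each other, had r = 0.96 and Spearman's rho = 0.92 (permutation p 6e-05 and 0.00021, Benjamini-Hochberg adjusted 0.0045 and 0.00787 over 75 relations). Without the libraries farthest from the median, saline replicate 4 and AngII+ETH replicate 5, r was 0.95. Cav2 and Cavin2 had r = 0.84 and rho = 0.90 (permutation p 0.00032 and 0.00015, adjusted 0.012 and 0.00787), and r was 0.84 without saline replicates 1 and 4. In these 2 pairs both coefficients passed. Cav1 with Cavin1 (r = 0.88), Cav1 with Cavin3 (r = 0.85) and Cav3 with Cavin2 (r = -0.60) passed by r alone, each with a permutation p adjusted to 0.0472. By rho their permutation p was adjusted to 0.119, 0.0887 and 0.146. Without the 2 farthest libraries of each, r was 0.71, 0.69 and -0.61. Of the 30 relations of a member with the endothelial, cardiomyocyte or adipocyte marker level, 0 passed by permutation, the lowest adjusted p being 0.335. The largest r was 0.68, for Cav1 with the adipocyte level, and it was 0.33 without saline replicates 1 and 4. Saline replicate 6, the highest in Adipoq, was not among the 13 libraries. The cardiomyocyte level included Mybpc3, listed at 0 in some library of every group. The count of 0 therefore does not show that members and levels were unrelated. The other marker levels, smooth muscle and pericyte among them, were not set against the members.

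**Figure D4:**
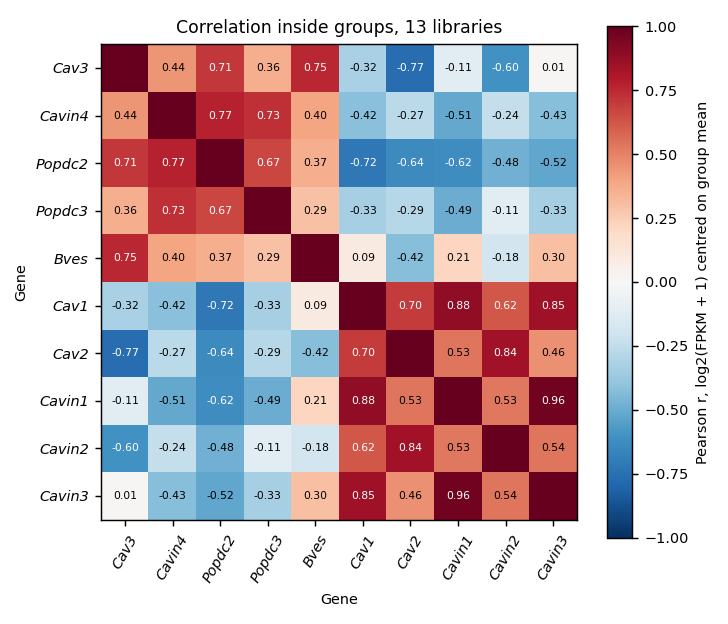
Pearson's r between genes (both axes) over the 13 libraries with Myl7 and Myl2 at 10 FPKM or more, on log2(FPKM + 1) centred on the group mean. All 10 values among the muscle genes and all 10 among the broadly expressed genes are positive, and 21 of the 25 values across them are negative; 2 pairs, both of broadly expressed genes, passed by r and by rho.

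The genes most like a member over all 18 libraries were ranked for Cav1, Cav3, Cavin4 and Popdc2 by Pearson's r of log2(FPKM + 1), as a description. For Cavin4 they were Hspb7, a heart small heat shock protein, at 0.98, Actn2, the alpha-actinin of the Z-disc, at 0.96 and Myoz2, a Z-disc protein, at 0.95. For Cav3 they were Fbxl22 at 0.95, Hspb7 at 0.93 and Polr1e at 0.92. For Popdc2 they were Cryab, a small heat shock protein, at 0.96, and Actn2 and Twf2 at 0.95 each. For Cav1 they were Slc1a3, a glutamate transporter, at 0.94, Cables1 at 0.93 and Uhmk1 at 0.92. These libraries share the treatment and tissue differences given above.

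Cav1 was counted from start sites that give proteins of different length. Cav1-201 and Cav1-205 begin at the upstream start and code for 178 residues, the alpha form. Cav1-202, 1305 bases downstream, and Cav1-203 code for 147 residues, the beta form, which lacks the first residues of the alpha form. The alpha-coding transcripts stood at 68.4, 92.8 and 166 FPKM (lowest, median and highest) in saline, at 66.8, 93.9 and 108 FPKM in AngII and at 72.0, 89.3 and 109.6 FPKM in AngII+ETH. The beta-coding transcripts stood at 34.5, 53.0 and 113 FPKM in saline, at 26.6, 57.6 and 84.8 FPKM in AngII and at 4.70, 51.5 and 75.1 FPKM in AngII+ETH. The groups overlapped for both forms. The beta share of both was 36.8% ± 7.13 in saline, against 37.2% ± 9.52 under AngII and 31.2% ± 16.5 under AngII+ETH (SD, n = 6 each), and the wide AngII+ETH spread came from replicate 4, at 4.11%, and replicate 1, at 18.6%. The split between Cav1-201 and Cav1-205, which code for the same protein, moved from library to library, Cav1-205 holding 13.3% to 89.9% of the alpha-coding level. Such shares rest on how reads common to several transcripts were divided upstream and were not tested.

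**Figure D5:**
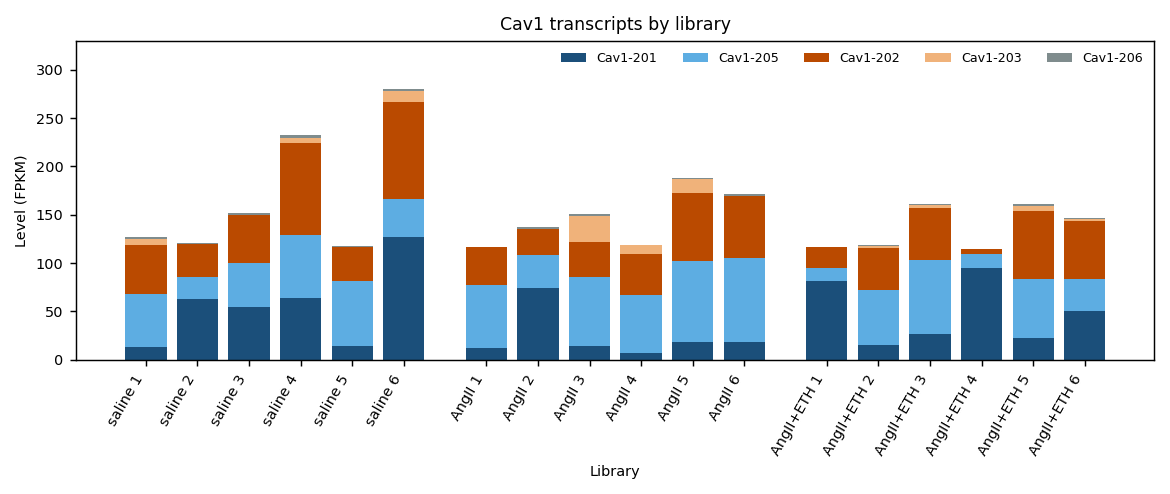
Level of each Cav1 transcript in FPKM, stacked (y axis, from 0), in each of the 18 libraries (x axis); blue transcripts code for 178 residues and orange ones for 147. The orange part is 4.70 FPKM in AngII+ETH replicate 4 and the full stack reaches 280 FPKM in saline replicate 6.

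Genes that work beside the members were taken as 5 lists. The lists were written with earlier results of these data known, so their counts are given as a description and nothing is read from them. By limma, 0 genes of any list passed the adjusted threshold in any comparison, in either direction. In AngII against saline, 8 of 9 tested transverse tubule genes had a positive difference, with a list median of 0.29, beside 39.2% of all genes. For the dystrophin complex, with which Cav3 associates at the sarcolemma, the difference was positive for 11 of 14 genes, with a list median of 0.26. The counts were 11 of 17 genes of the caveola neck and membrane shaping (median 0.09), 11 of 21 receptors and enzymes known from caveolae (median 0.02) and 4 of 13 Popeye partners (median -0.10), beside -0.06 over all genes. At an unadjusted p under 0.05 the lists held 3, 1, 3, 1 and 2 genes, in the order just given, beside 9.06% of all genes. In AngII+ETH against AngII the medians were 0.04, -0.02, 0.02, 0.05 and -0.04 and the unadjusted counts 0, 0, 1, 1 and 0, beside 1.91% of all genes. In AngII+ETH against saline the unadjusted counts were 1, 3, 3, 2 and 1, beside 7.51% of all genes.

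Fyn, a Src family kinase that phosphorylates Cav1, spanned 8.23 to 10.9 FPKM in saline, 11.4 to 14.7 FPKM in AngII and 12.6 to 14.4 FPKM in AngII+ETH. Its saline range touched neither of the others, beside 0.162% and 0.359% of all genes fully apart with saline lower. The fitted differences were 0.34 (SE 0.083) and 0.39, with a limma adjusted p of 0.441 and 0.253. The genes of this paragraph were named by smallest p in these same comparisons, so their values are a description. Pacsin3, an F-BAR protein that bends the caveola neck in muscle, had means of 6.32 ± 4.20, 20.6 ± 11.1 and 16.1 ± 10.5 FPKM (SD, n = 6 each), a difference of 1.53 (SE 0.472) for AngII. Jph2, which ties the transverse tubule to the sarcoplasmic reticulum, had 106 ± 37.2, 144 ± 26.7 and 146 ± 14.1 FPKM, and Dysf, a membrane repair protein, 6.78 ± 1.03, 8.43 ± 1.48 and 10.4 ± 2.43 FPKM. Adrb1, the main beta-adrenergic receptor of cardiomyocytes, had 10.3 ± 0.950 FPKM in saline against 8.03 ± 1.80 and 7.59 ± 0.797 FPKM. Hcn4, the sinus node pacemaker channel, had 5.09 ± 2.02 FPKM in saline against 1.78 ± 1.02 and 3.27 ± 2.05 FPKM, with a difference of -1.15 for AngII. Of the other genes named by smallest p, the differences of AngII from saline were 0.68 for Dtna and 0.33 for Trdn, a calcium release protein, and 0.94 for Xirp1 and 0.22 for Nos3, the endothelial nitric oxide synthase. The differences of AngII+ETH from saline were 0.49 (0.14 to 0.84) for Dag1, the dystroglycan gene, and 0.98 (-0.14 to 2.10) for Myof. They were 0.67 (0.08 to 1.26) for Insr, the insulin receptor, and -0.76 (-1.31 to -0.22) for Pde4d, which degrades cyclic AMP. The difference of AngII+ETH from AngII was 0.62 (0.01 to 1.22) for Dnm1. The intervals included 0 for Flna at 0.44 (-0.57 to 1.45) and Tcap at -0.23 (-0.57 to 0.11). They also included 0 for Rapgef3 at -0.27 (-0.62 to 0.09) and Ednrb at -0.41 (-1.08 to 0.26).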

How the data were processed

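The deposited values are transcript levels, 1 file per library. Their unit is not named; their range, the sums weighted by transcript length and the steps at low values fit FPKM, so they were used as FPKM deposited by the authors. Per the submitters' processing notes, limma was used, with no version. The authors' aligner, build and gene models were not given in the sources used here, and the library protocol names rRNA depletion, per the labels' protocols.

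ENSMUST values were summed per gene with GENCODE M21 (20478 of 20647 common IDs matched). 8239 assembled transcripts without such a name, 10.4% to 15.7% of the sum, were left out. Values were put on the log2(FPKM + 1) scale, and genes whose mean reached 1 FPKM in at least 1 group were kept (11703 of 12911); all 10 members passed. Sums used only transcripts in every file, which affects the 1171 genes with a transcript in only 1 list, Popdc2 among them. A fold change on this scale understates the change of low genes. limma 3.58.1 in R 4.3.3 fitted the 3 groups together, with Benjamini-Hochberg adjustment over all genes, tested on simulated data. Correlations used 100000 permutations of libraries inside groups in Python 3.11.15 with pandas 2.3.3 and numpy 2.4.6. Fragment depth was inferred from values of up to 10 fragments, of which 44.6% to 55.9% came out whole within 0.05; the share is too low to recover counts, so no count test was made. Libraries were grouped by the treatment label. Alternatives changed the pseudocount, low-value filter, scaling, covariates and libraries. Named genes were all members, the pathway genes with the smallest p per list and comparison (the first 2, of which 1 is not reported here), the 3 genes most like Cav1, Cav3, Cavin4 and Popdc2, and markers. The members and lists were chosen with earlier results of these data known. Sequences come from RefSeq on GRCm38.p6.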

Additional observations from a re-analysis of the deposited data

How the results depend on the processing

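No paired analysis was possible because the labels number no replicates, and the numbers used here follow only the order of the samples in each group. Leaving out each library in turn, the count of members past limma's adjusted threshold ran from 0 to 1 in AngII against saline and from 0 to 1 in AngII+ETH against saline, the 1 being Cav3 without saline replicate 5. Of all 11703 genes, 8 were higher and 3 lower without that library in AngII against saline, and 4 and 4 in AngII+ETH against saline. In AngII+ETH against AngII the count of members was 0 under every alternative run. Over all alternatives run, the difference of AngII from saline ran from 0.34 to 0.84 for Cav3, from 0.49 to 1.48 for Cavin4, from 0.40 to 0.83 for Popdc3, from 0.04 to 0.60 for Popdc2 and from -0.03 to 0.43 for Bves. With the cardiomyocyte covariate, Cav1 stood at 0.27, Cav2 and Cavin1 at 0.38, Cavin2 at 0.44 (unadjusted p 0.031 by limma) and Cavin3 at 0.54. Those genes lay between -0.15 and 0.02 over all libraries with no covariate, and Cav1 reached 0.29 under another alternative. The median over all genes stood at 0.09 with the cardiomyocyte covariate against -0.06 with none. The cause was not tested. AngII+ETH against AngII ran from -0.09 to 0.16 for Cav3 and from -0.14 to 0.22 for Cavin4. Of the member differences recomputed, 724 stayed within the residual SD of the fit, 14 moved by more and 2, both of Cav3, passed the threshold anew. The spread of the saline libraries limits what can be told.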
